A study of Mus musculus with 6 samples.

Results

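The 31 genes described here are hypoxia-inducible genes outside glycolysis, picked by name from the deposited table of 55401 genes: transcripts known to be raised by hypoxia-inducible factor (HIF) that act in mitophagy, collagen hydroxylation and cross-linking, histone demethylation, angiogenic signalling and stress responses. All 31 names were found, once each. The list was drawn up with earlier results of the same comparison known, so its counts and fold changes are given as a description and nothing about the pathway rests on them.

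Transcripts were measured by polyadenylated RNA-seq in C2C12 myotubes, a single mouse myoblast line differentiated in medium with 2% horse serum. In 3 libraries the cells had received SENP7 siRNA, against a protease that removes SUMO from proteins. The other 3 libraries had received a control siRNA named GL2, a luciferase siRNA with no target in mouse cells. Every culture was given 100 pmol of siRNA for 3 days, the labels name no exposure to low oxygen, and they do not say whether 1 siRNA or a pool was used. The submitters call the 3 libraries of a group biological replicates.

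HIF is a dimer of an oxygen-labile alpha subunit and the stable partner ARNT. When oxygen is present, prolyl hydroxylases of the Egln family mark the alpha subunit for destruction by the ubiquitin ligase that contains VHL, and when oxygen is short the alpha subunit persists and binds hypoxia response elements. Besides glycolysis, its targets lower mitochondrial mass through mitophagy, equip cells to secrete and cross-link collagen, and call in blood vessels.

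The 6 libraries held between 25223218 and 30865945 reads assigned to genes, and values are the authors' normalized read counts, for which 1 unit is close to 1 read. Senp7, the siRNA target, had 275, 279.2 and 346.7 normalized counts in SENP7 replicates 1, 2 and 3, against 556.4, 616.4 and 648.8 in control replicates 1, 2 and 3. Control replicate 3 stood apart from the other controls. On the first principal component of all tested genes, which held 64.4% of the variance, it lay at 19.1, where control replicates 1 and 2 lay at 36.7 and 33.4 and the SENP7 libraries between -32.5 and -27.7. All 8 markers of differentiated muscle were detected, 3 of them called higher, and they summed to between 28963 and 31990 TPM (a level per exon length and library depth, computed from the recovered reads) in the SENP7 libraries and between 25359 and 27165 TPM in the controls. Of 4 endothelial markers and 6 of blood cells, all but Cd68 were under 1 TPM, and Adgre1 was at 0 in every library. The endothelial markers summed to between 0.565 and 0.70 TPM in the SENP7 libraries and between 0.272 and 0.421 TPM in the controls, without overlap, and the 1 of them that passed the filter was called higher. The blood cell markers summed to between 4.12 and 4.99 TPM in the SENP7 libraries and between 3.92 and 5.73 TPM in the controls. The 6 markers of proliferating myoblasts summed to between 119 and 136 TPM in the SENP7 libraries and between 120.5 and 160 TPM in the controls, highest in control replicate 3, and 1 of them was called higher. The part of these marker genes in the results was not tested.

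Promoter sequences, at hand for only part of the members, are shown first. They came from RefSeq (GRCm38.p6), whose transcript starts can differ from the gene starts of the deposited table. Windows from 250 bases before to 50 bases after a transcript start were given for 22 of the 31 genes. These were 34 windows in all because 7 genes had several starts. The 9 genes without a window were Bnip3l, Plod2, Ndrg1, Kdm4b, Bhlhe40, Lox, Loxl2, Zfp395 and Ets1. The core of a hypoxia response element was searched as ACGTG or GCGTG on both strands, and a palindromic CACGTG counts as 2 overlapping cores. Each of the 22 genes had a core in at least 1 window, as did 46.7% of all 27025 genes with a window. In Vegfa the window near the deposited gene start held 0 cores, and its other window held 2. By window, 28 of 34 (82.4%) held a core, against 60.8% of 13445 windows of all genes tested and 43.8% of all 32851 windows. The members' windows were rich in G and C, with a median of 66% beside 52.7% over all windows. Among windows with a GC content of at least 60%, a core stood in 25 of 27 from the members (92.6%) and in 71.4% of those of all genes tested. Matches to ACGTG alone were in 18 of 34 member windows (52.9%) and in 25.1% of windows of all genes tested. A match describes the letters of a window and is not evidence that a factor binds there.

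The stretches below are the 250 bases before the start, 5′ to 3′ on the strand of the gene, with the cores in capitals. Those of Bnip3 (chr7:138909507-138909756, minus strand), Fam162a (chr16:36071562-36071811, minus strand), Ak4 (chr4:101419039-101419288, plus strand, the first of its 4 windows) and P4ha2 (chr11:54100674-54100923, plus strand) belong to genes with larger decreases. Those of Bhlhe41 (chr6:145865421-145865670, minus strand), which was higher, and of Kdm4c (chr4:74251629-74251878, plus strand, the second of its 2 windows), which was not called, are shown because they carry several cores too.
Bnip3: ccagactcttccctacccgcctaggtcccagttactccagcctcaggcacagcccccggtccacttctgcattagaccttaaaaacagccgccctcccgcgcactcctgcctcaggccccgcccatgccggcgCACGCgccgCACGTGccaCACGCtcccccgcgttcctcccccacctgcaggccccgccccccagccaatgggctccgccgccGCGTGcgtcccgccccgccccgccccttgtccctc
Fam162a: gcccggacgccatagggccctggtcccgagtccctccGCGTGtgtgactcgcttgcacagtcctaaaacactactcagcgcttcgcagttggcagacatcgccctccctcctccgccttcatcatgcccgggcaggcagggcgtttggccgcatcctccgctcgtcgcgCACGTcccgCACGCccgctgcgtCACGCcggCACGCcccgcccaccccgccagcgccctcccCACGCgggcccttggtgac
Ak4: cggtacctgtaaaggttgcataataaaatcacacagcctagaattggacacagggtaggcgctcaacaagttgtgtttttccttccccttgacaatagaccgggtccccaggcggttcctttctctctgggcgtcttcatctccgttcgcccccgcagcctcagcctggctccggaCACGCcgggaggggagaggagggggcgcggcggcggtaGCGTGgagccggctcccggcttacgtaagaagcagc
P4ha2: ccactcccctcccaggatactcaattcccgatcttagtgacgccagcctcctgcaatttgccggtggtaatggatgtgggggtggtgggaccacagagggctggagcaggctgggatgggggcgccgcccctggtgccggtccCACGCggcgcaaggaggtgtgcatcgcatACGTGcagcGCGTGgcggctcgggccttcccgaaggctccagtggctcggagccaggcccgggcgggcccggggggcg
Bhlhe41: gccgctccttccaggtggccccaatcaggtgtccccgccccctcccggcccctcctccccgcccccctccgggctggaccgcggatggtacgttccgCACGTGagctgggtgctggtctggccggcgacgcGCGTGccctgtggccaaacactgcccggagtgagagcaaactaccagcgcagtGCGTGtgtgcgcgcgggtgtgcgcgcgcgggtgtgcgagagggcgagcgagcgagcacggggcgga
Kdm4c: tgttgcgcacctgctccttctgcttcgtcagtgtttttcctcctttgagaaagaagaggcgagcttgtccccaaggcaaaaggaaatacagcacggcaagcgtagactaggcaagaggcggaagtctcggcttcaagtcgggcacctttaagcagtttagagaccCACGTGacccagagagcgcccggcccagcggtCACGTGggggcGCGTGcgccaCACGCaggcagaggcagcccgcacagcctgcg
Fam162a and Kdm4c each had 6 cores in these stretches, Bnip3 5, Bhlhe41 4, P4ha2 3 and Ak4 2. In these stretches Bhlhe41 and Kdm4c had more cores than Ak4 and P4ha2, which were lower. That order depends on the stretch chosen and on counting a palindrome as 2. Over the whole windows Bhlhe41 and P4ha2 had 4 cores each. The last window of Ak4 had 3, and the first window of Kdm4c had 0.

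**Figure D1:**
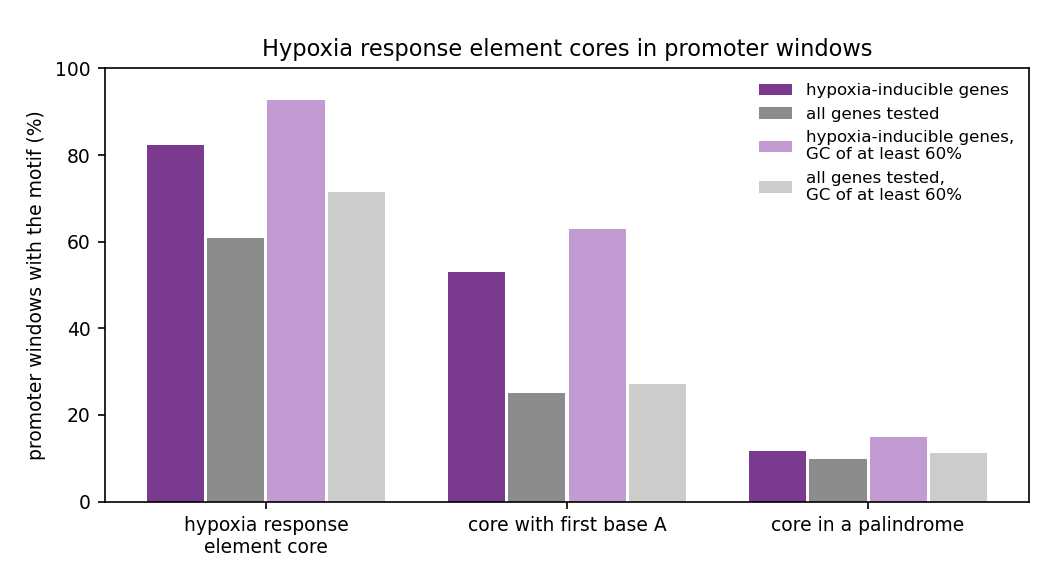
Share of promoter windows (vertical axis, percent) that held a hypoxia response element core, a core whose first base is A, or a core within a palindrome, for windows of the 22 hypoxia-inducible genes with a window and of all genes tested, each also for windows with a GC content of at least 60%. The members' bars stand above those of all genes tested for the core (82.4% and 60.8%) and lie close to them for the palindrome (11.8% and 9.89%).

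In the comparison of SENP7 siRNA with control siRNA, most of the 31 transcripts were lower. The group means were lower in 28 genes and higher in Bhlhe41, Tfrc and Kdm4c. In limma's fit over all 14668 genes tested, with Benjamini-Hochberg adjustment over all of them and a threshold of 0.05, 14 members fell and 1, Bhlhe41, rose. Of all genes tested, 20.9% were called, 10.7% as lower and 10.2% as higher. Log2 fold changes are given as SENP7 siRNA over control siRNA. Their median was -0.37 over the members and -0.0025 over all genes tested, and all 31 members passed the filter on counts. In these bulk libraries, fewer cells of a kind and less RNA per cell cannot be told apart. The authors' deposited table, with an adjusted p below 0.05, has 13 of the 31 lower and 1 higher. Of all 27493 genes with an adjusted p there, 1322 were lower and 1223 higher.

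The counts depended on control replicate 3. It was the lowest control in 27 of the 31 genes, as it was in 41.1% of all genes tested. In 26 members, against 47.7% of all genes tested, its log2 value lay nearer to the SENP7 mean than to that of the other controls. Its median log2 difference from the other controls was -0.44 over the members and -0.0056 over all genes. Without control replicate 3, 24 members were lower and 2 higher, while 32.1% of all genes were called, 16.5% as lower and 15.6% as higher, and the members' median log2 fold change was -0.47. The 11 members called in addition were P4hb, Plod2, Kdm3a, Ddit4, Ankrd37, Stc2, Loxl2, Zfp395, Insig2, Jmjd6 and, as the higher one, Tfrc. Leaving out any other library lowered the count of lower members to between 4 and 8 and the count of higher members to 0. The 4 genes that passed in all 13 alternative settings were Vegfa, Ndrg1, Bhlhe40 and Lox, each of them lower.

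**Figure D2:**
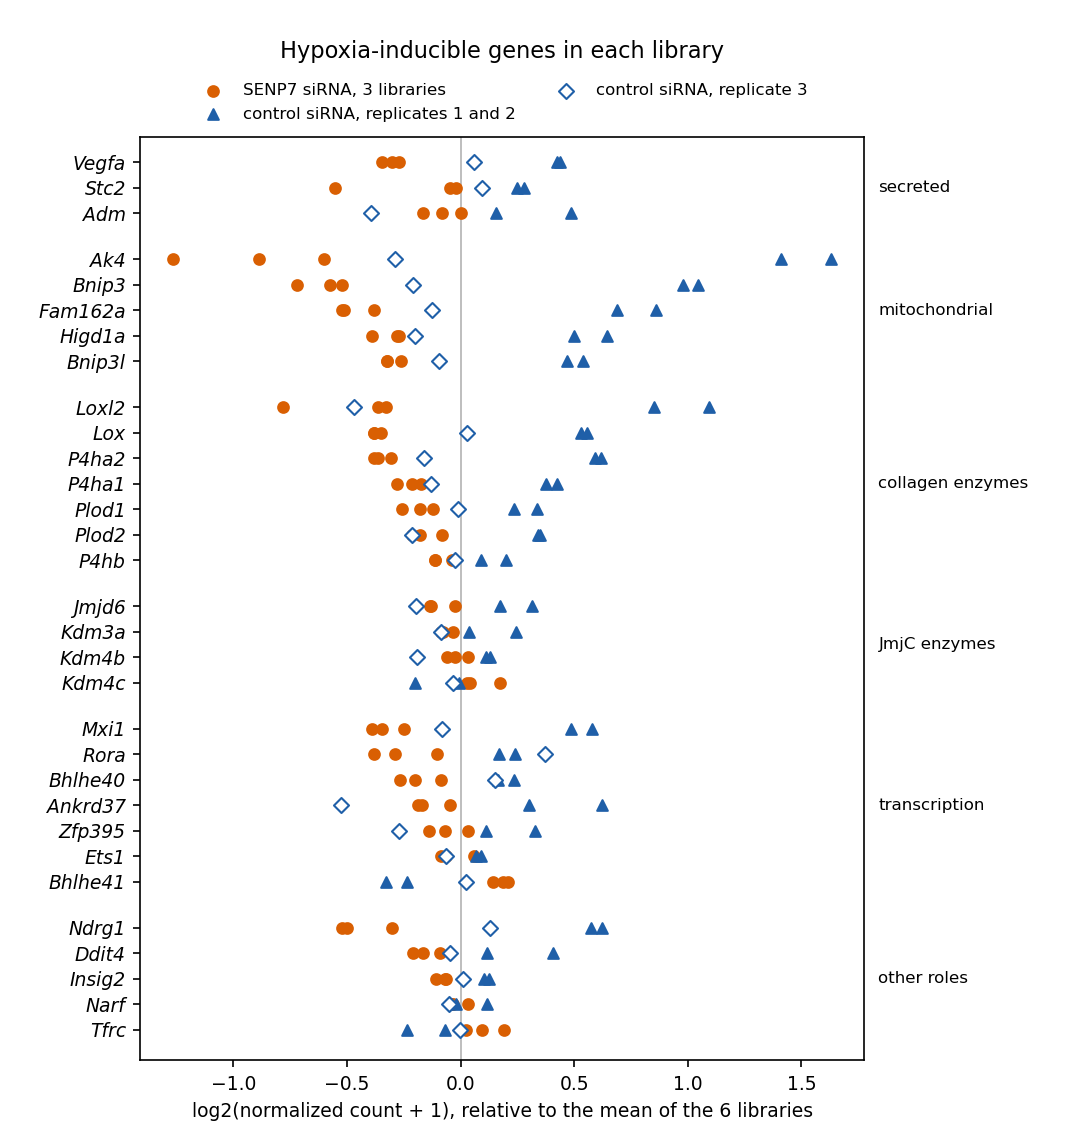
Values of the 31 genes in each library (horizontal axis: log2 of the normalized count + 1, relative to the gene's mean over the 6 libraries), with SENP7 siRNA libraries as filled circles, control replicates 1 and 2 as triangles and control replicate 3 as an open diamond. The diamond lies to the left of both triangles in 27 genes, and to the left of all 3 circles as well in genes such as Ankrd37, Adm and Jmjd6.

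The 3 libraries of SENP7 siRNA lay above or below all 3 controls, without overlap, in 21 members, as they did in 39.6% of all genes tested. In 18 of them the SENP7 libraries were lower, where 20.4% of all genes tested showed this, and in 3 they were higher, where 19.3% did. Without control replicate 3 the groups were apart with lower SENP7 values in 27 members, beside 29.7% of all genes. Control replicate 3 lay below every SENP7 library in 10 members, among them Bhlhe41, Tfrc and Kdm4c, in which the other controls did too.

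Among the secreted factors, Vegfa fell, and Adm and Stc2 did not pass the test. Vegfa, the main angiogenic growth factor, lies on chromosome 17 from 46016993 to 46032369 (minus strand, GRCm38). It had 4825, 4715 and 4578 normalized counts in SENP7 replicates 1, 2 and 3, against 7810.4, 7884 and 6062 in control replicates 1, 2 and 3. Every SENP7 library lay below every control, and control replicate 3 lay between. Its mean was 4706 ± 124 with SENP7 siRNA and 7252 ± 1031 with control siRNA (SD, n = 3 each), 1.53-fold lower (log2 fold change -0.61 ± 0.10 SE, limma adjusted p = 0.00328), and the adjusted p stayed at or below 0.0239 in all alternatives. Stc2, which encodes the secreted glycoprotein stanniocalcin, had 359.3, 365.9 and 252.9 normalized counts with SENP7 siRNA, against 450.5, 441.7 and 395.9 with control siRNA. The groups did not overlap, and the log2 fold change of -0.41 ± 0.14 missed the threshold (limma adjusted p = 0.0703). It passed without control replicate 3 (adjusted p = 0.0359) and without a filter on low genes (0.0347). Adm, the vasodilator peptide adrenomedullin, was low, at 51.5, 54.6 and 57.8 normalized counts in the SENP7 libraries, against 64.5, 81.2 and 43.8 in the controls. Control replicate 3 was the lowest library of all, and the log2 fold change of -0.16 turned to 0.04 without control replicate 2.

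All 5 mitochondrial members fell. Bnip3 and its relative Bnip3l (Nix) are receptors on the outer membrane that tether mitochondria to the autophagy machinery. Bnip3, on chromosome 7 from 138890836 to 138909519 (minus strand), had 1667, 1611 and 1453 normalized counts in SENP7 replicates 1, 2 and 3, against 4730.2, 4953 and 2076 in control replicates 1, 2 and 3. The SENP7 libraries were the lowest, control replicate 3 stood just above them, and the other controls were far higher. Its log2 fold change was -1.21 ± 0.28 (limma adjusted p = 0.0159), or -1.62 ± 0.07 without control replicate 3. Bnip3l had 2302, 2204 and 2204 normalized counts with SENP7 siRNA, against 3824, 4016 and 2590.3 with control siRNA, which gave -0.61 ± 0.14 on the log2 scale (adjusted p = 0.0172).

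Ak4, an adenylate kinase of the mitochondrial matrix, had the largest fold change of the 31 in limma's fit. Its normalized counts were 197, 161.5 and 124.1 in the SENP7 libraries, against 799.3, 930.1 and 245.1 in the controls. The mean was 160.9 ± 36.4 with SENP7 siRNA and 658.2 ± 364 with control siRNA (SD, n = 3 each), 3.57-fold lower on the log2(count + 1) scale (-1.84 ± 0.43, adjusted p = 0.0173). Leaving out control replicate 3 made it 5.43-fold lower (-2.44 ± 0.17). The authors' deposited log2 fold changes were smaller, at -0.768 for Ak4 and -0.772 for Bnip3. The largest of the 31 there was that of Ndrg1, at -0.831. Fam162a, a mitochondrial protein linked to cell death under hypoxia, had 1733, 1580.1 and 1573 normalized counts with SENP7 siRNA, against 4100.2, 3640.3 and 2069 with control siRNA (-0.95 ± 0.21, adjusted p = 0.0139). Higd1a, a small protein of the inner mitochondrial membrane, had 933.4, 925.4 and 858.3 normalized counts with SENP7 siRNA, against 1758, 1591 and 980.5 with control siRNA (-0.63 ± 0.18, adjusted p = 0.0404). In all 5 genes the groups did not overlap and control replicate 3 lay nearest to the SENP7 libraries.

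The standard errors of these 5 genes were larger with control replicate 3 than without it. All 5 passed with DESeq2 and with edgeR on the recovered reads and without control replicate 3. None passed without SENP7 replicate 2, SENP7 replicate 3 or control replicate 2, with adjusted p from 0.0573 to 0.165, and none without a filter on low genes, where adjusted p ran from 0.102 to 0.25. Without SENP7 replicate 1 the calls of Ak4 (0.0442) and Fam162a (0.0457) were left, and without control replicate 1 that of Fam162a (0.0415). Exons of genes on the opposite strand cover 22.3% of the exon length of Bnip3, 22.5% of Higd1a and 19.8% of Fam162a. The partners of the first pair, Gm45507 and Gm47112, had at most 3.89 normalized counts, and that of Fam162a, Wdr5b, had between 175 and 210 in SENP7 libraries and between 133 and 159 in controls. Of 14 other mitophagy genes tested, 3 fell (Gabarap, Gabarapl1 and Optn), 1 rose (Bcl2l13) and 10 did not pass. Their median log2 fold change was -0.12. Of these, 5 were lower and 1 higher without control replicate 3.

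**Figure D3:**
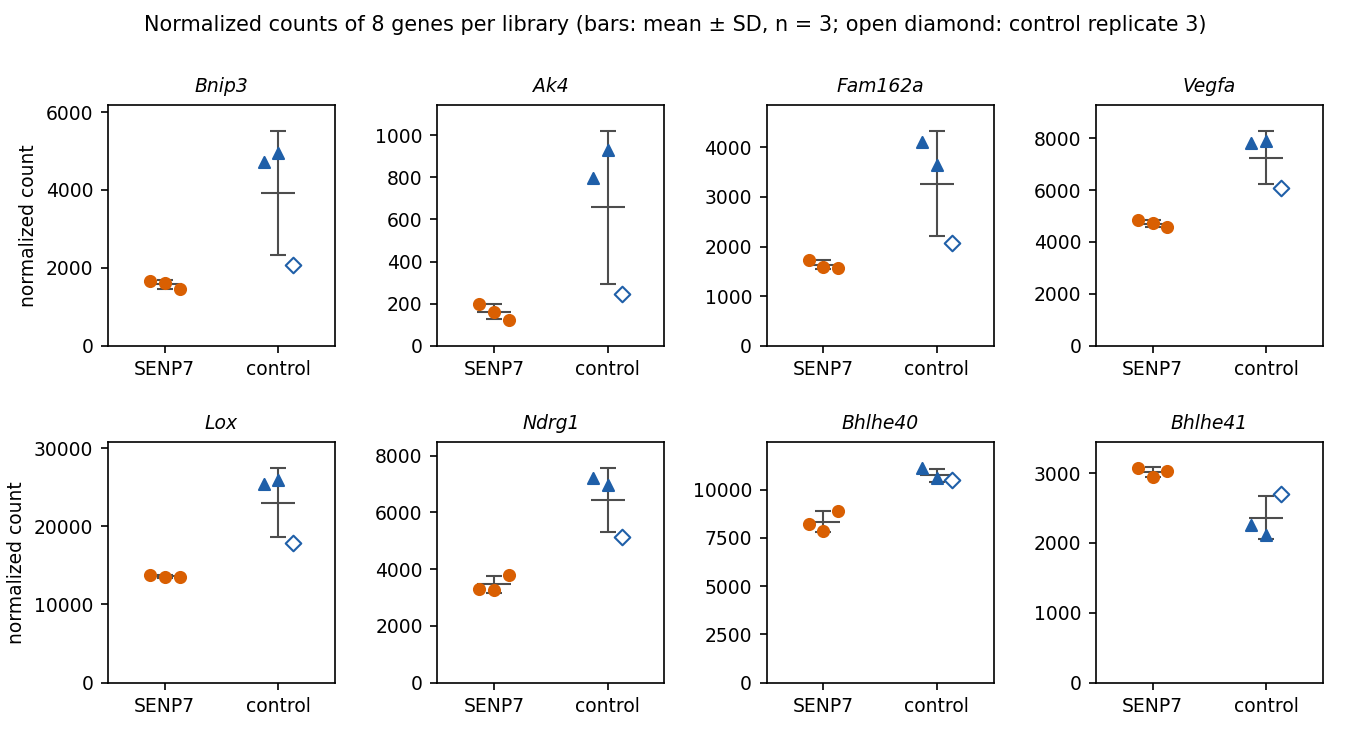
Normalized counts of 8 genes (vertical axes, each from 0) in the 3 SENP7 siRNA libraries, at the left of each panel, and the 3 control siRNA libraries, at the right, with the mean ± SD. Control replicate 3, the open diamond, sits close to the SENP7 libraries in Bnip3, Ak4 and Fam162a, between the groups in Vegfa, Lox and Ndrg1, and among the controls in Bhlhe40.

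Of the 7 genes that modify or cross-link collagen, 4 fell and 3 did not pass. P4ha1 and P4ha2 encode the catalytic subunits of collagen prolyl hydroxylase, which stabilises the triple helix, and P4hb encodes its partner subunit, protein disulfide isomerase. P4ha2, on chromosome 11 from 54100095 to 54131665 (plus strand), had 3227, 3099 and 3058 normalized counts with SENP7 siRNA, against 6128, 6019 and 3570 with control siRNA (-0.70 ± 0.18, limma adjusted p = 0.024). P4ha1 had 8243, 8028 and 7655 normalized counts with SENP7 siRNA, against 12492, 12090.1 and 8505 with control siRNA (-0.45 ± 0.13, adjusted p = 0.043). In both, control replicate 3 lay far closer to the SENP7 libraries than to the other controls. P4hb had the highest level per length of the 31, at 961 ± 53.5 TPM with SENP7 siRNA and 1082 ± 29.9 TPM with control siRNA. Its log2 fold change of -0.17 ± 0.08 did not pass (adjusted p = 0.151), although its SENP7 libraries all lay below its controls.

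Lox, the lysyl oxidase that starts collagen and elastin cross-linking, fell in every setting. Its normalized counts were 13760, 13481 and 13504 in SENP7 replicates 1, 2 and 3, against 25360.3, 25870.3 and 17893 in control replicates 1, 2 and 3. Control replicate 3 lay between the groups, apart from both. The log2 fold change was -0.74 ± 0.13 (adjusted p = 0.00487), with adjusted p of at most 0.0312 over the alternatives. Loxl2, a relative of Lox, had 379.7, 370.2 and 276.6 normalized counts with SENP7 siRNA, against 861.8, 1019 and 344.3 with control siRNA. Control replicate 3 fell within the range of the SENP7 libraries, and at -0.98 ± 0.35 on the log2 scale it was not called (limma adjusted p = 0.0758). It was called by edgeR (0.0486). Without control replicate 3 the log2 fold change was -1.47 ± 0.14 (adjusted p = 5.07e-05).

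The lysyl hydroxylases Plod1 and Plod2 prepare collagen for these cross-links. Plod1 fell (-0.37 ± 0.09, adjusted p = 0.0194), with 4500.2, 4267 and 4693 normalized counts in the SENP7 libraries, against 6437, 6006 and 5063 in the controls. Plod2 did not pass (-0.32 ± 0.14, adjusted p = 0.14). Its counts were 4357, 4255 and 4663 with SENP7 siRNA, against 6242, 6278 and 4253 with control siRNA, so that control replicate 3 was below every SENP7 library. Apart from Lox, the calls of this group depended on the libraries. P4ha1 and P4ha2 passed in none of the fits that left out 1 library other than control replicate 3 (adjusted p between 0.0739 and 0.172) and not without a filter (0.152 and 0.206), and Plod1 passed in 1 of them, without SENP7 replicate 3 (0.038). Without control replicate 3 all 7 fell.

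Collagen genes, whose products are the substrates of these enzymes, moved in both directions. Of 17 collagen genes tested, 5 were called higher, 2 lower and 10 did not pass. The median of their log2 fold changes was 0.24. Leaving out control replicate 3 gave 8 higher, 4 lower and a median of 0.17. Col3a1, a fibrillar collagen, was at 136230 ± 16742 normalized counts with SENP7 siRNA and 86968 ± 5483 with control siRNA (SD, n = 3 each; limma adjusted p = 0.00397). Col18a1, the source of endostatin, went the other way, at 5641 ± 336 with SENP7 siRNA and 11623 ± 3399 with control siRNA (adjusted p = 0.00721). Among 16 further collagen-modifying genes outside the list, 2 rose (Pcolce and Loxl1), 2 fell (Loxl3 and Fkbp10) and 12 did not pass.

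None of the 4 JmjC-domain members passed the test. These oxygen-dependent enzymes include the histone demethylases Kdm3a, Kdm4b and Kdm4c, and Jmjd6. Kdm3a had 2561, 2656 and 2576 normalized counts with SENP7 siRNA, against 2788, 3216 and 2561 with control siRNA, a log2 fold change of -0.13 ± 0.08 (limma adjusted p = 0.298). Jmjd6 had 1672, 1800.5 and 1675 normalized counts with SENP7 siRNA, against 2279, 2069 and 1601 with control siRNA (-0.19 ± 0.12, adjusted p = 0.274). Control replicate 3 lay within the range of the SENP7 libraries in Kdm3a and below it in Jmjd6, and both were called lower once it was left out (-0.21 with adjusted p = 0.0404, and -0.34 with adjusted p = 0.00261). Kdm4b (-0.03 ± 0.09, adjusted p = 0.831) changed sign without control replicate 1 or 2. Kdm4c (0.16 ± 0.07) had higher values in all 3 SENP7 libraries, 1163, 1175 and 1286, against 992.8, 1136 and 1115 in the controls, without passing (adjusted p = 0.159). Of 16 other JmjC demethylases, 1 rose (Kdm6b, 0.30 ± 0.08, adjusted p = 0.0341), 0 were called lower and 15 did not pass, and 2 were higher without control replicate 3.

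The 7 transcription regulators moved in both directions. Bhlhe40 and Bhlhe41 encode closely related repressors that bind the palindrome CACGTG and act in the circadian clock. Bhlhe40, on chromosome 6 from 108660629 to 108666925 (plus strand), had 8220.4, 7861 and 8921 normalized counts with SENP7 siRNA, against 11146, 10616 and 10493 with control siRNA. The controls lay close together, control replicate 3 included, and all were above the SENP7 libraries (-0.37 ± 0.07, limma adjusted p = 0.00635, at most 0.0437 over the alternatives). Bhlhe41, on the same chromosome from 145858243 to 145865558 (minus strand), had 3079, 2942 and 3031 normalized counts with SENP7 siRNA, against 2263, 2118 and 2706 with control siRNA. It was the single member that rose (0.36 ± 0.09, adjusted p = 0.0194), and control replicate 3 again lay on the side of the SENP7 libraries. The call held without control replicate 3 (0.000163) and was lost without any other library (adjusted p from 0.0574 to 0.0845). Exons of Gm43909 on the opposite strand cover 19% of Bhlhe41, with at most 8.06 normalized counts.

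Mxi1, a Max-binding antagonist of Myc, fell, with 787, 712.5 and 735.1 normalized counts in the SENP7 libraries, against 1310.3, 1395 and 883.2 in the controls (-0.66 ± 0.15, limma adjusted p = 0.0159). The call was lost without SENP7 replicates 2 or 3 or control replicates 1 or 2 (adjusted p from 0.0534 to 0.0761) and without a filter (0.0535). Rora, a nuclear receptor of the clock, fell as well, at 104.7, 92 and 86.2 normalized counts with SENP7 siRNA, against 133, 126.8 and 145.9 with control siRNA (-0.52 ± 0.13, adjusted p = 0.0228). Here control replicate 3 was the highest library, and the call was lost without SENP7 replicates 2 or 3 or control replicates 1 or 2 (adjusted p from 0.0524 to 0.083). The authors' deposited table did not call Rora (DESeq2 adjusted p = 0.0605), alone among the members that limma called lower. Ankrd37, an ankyrin repeat protein, had 163.3, 149.8 and 147.8 normalized counts with SENP7 siRNA, against 260, 208 and 116.7 with control siRNA. Control replicate 3 was the lowest of all 6, the log2 fold change of -0.27 ± 0.25 did not pass (adjusted p = 0.492), and without control replicate 3 it was -0.60 (adjusted p = 0.00511). Exons of Lrp2bp and Ufsp2 on the opposite strand cover 26.4% of Ankrd37. Ufsp2 had between 1008 and 1085 normalized counts in SENP7 libraries and between 992 and 1062 in controls. Whether the overlap altered the Ankrd37 count depends on how strand and shared reads were handled, which is not given. Zfp395 (-0.12 ± 0.14) and Ets1 (-0.06 ± 0.07) did not pass. Of 15 clock genes tested outside the list, 2 fell, Npas2 and Nfil3, 1 rose and 12 did not pass. Without control replicate 3, 4 were lower and 2 higher. Their median log2 fold change was 0.03 with all libraries and 0.11 without that library.

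Of the remaining members, Ndrg1 fell and 4 did not pass. Ndrg1, a stress-responsive protein of differentiation and growth arrest, lies on chromosome 15 from 66929318 to 66969640 (minus strand). Its normalized counts were 3310.4, 3267 and 3803 in SENP7 replicates 1, 2 and 3, against 7205, 6975 and 5125 in control replicates 1, 2 and 3. It was 1.84-fold lower (-0.88 ± 0.13, limma adjusted p = 0.00178, at most 0.016 over the alternatives), the smallest adjusted p of the 31, and control replicate 3 lay nearer to the other controls than to the SENP7 libraries. Ddit4, which restrains the growth kinase mTOR, had 1046, 1102 and 1015 normalized counts with SENP7 siRNA, against 1557, 1273 and 1136 with control siRNA. The groups did not overlap, and the call was missed (-0.31 ± 0.11, adjusted p = 0.0666), while DESeq2 called it (0.0375), as did the fit without a filter (0.0332). Insig2, which holds back the sterol regulator SREBP, was at 1753 ± 27.4 normalized counts with SENP7 siRNA and 1961 ± 80.8 with control siRNA (SD, n = 3 each; adjusted p = 0.0754). Narf (-0.03 ± 0.06), a prelamin-binding protein gene, did not pass. Tfrc, the transferrin receptor that brings iron into cells, had 10855, 10153 and 9664 normalized counts with SENP7 siRNA, against 8071, 9055 and 9495 with control siRNA. Its SENP7 libraries lay above all controls without passing (0.21 ± 0.08, adjusted p = 0.102), and it passed in 1 alternative, without control replicate 3 (0.0197). Of 10 other iron genes, 2 rose (Fth1 and Slc11a2), 1 fell (Ftl1) and 7 did not pass. Ddit4 and Stc2 also respond to the integrated stress response. Of 15 genes of that response that were tested, 2 rose (Fgf21 and Sesn2), 0 were called lower and 13 did not pass. Without control replicate 3 the counts were 3 higher and 2 lower, and the median of their log2 fold changes was -0.11, against 0.02 with all libraries.

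**Figure D4:**
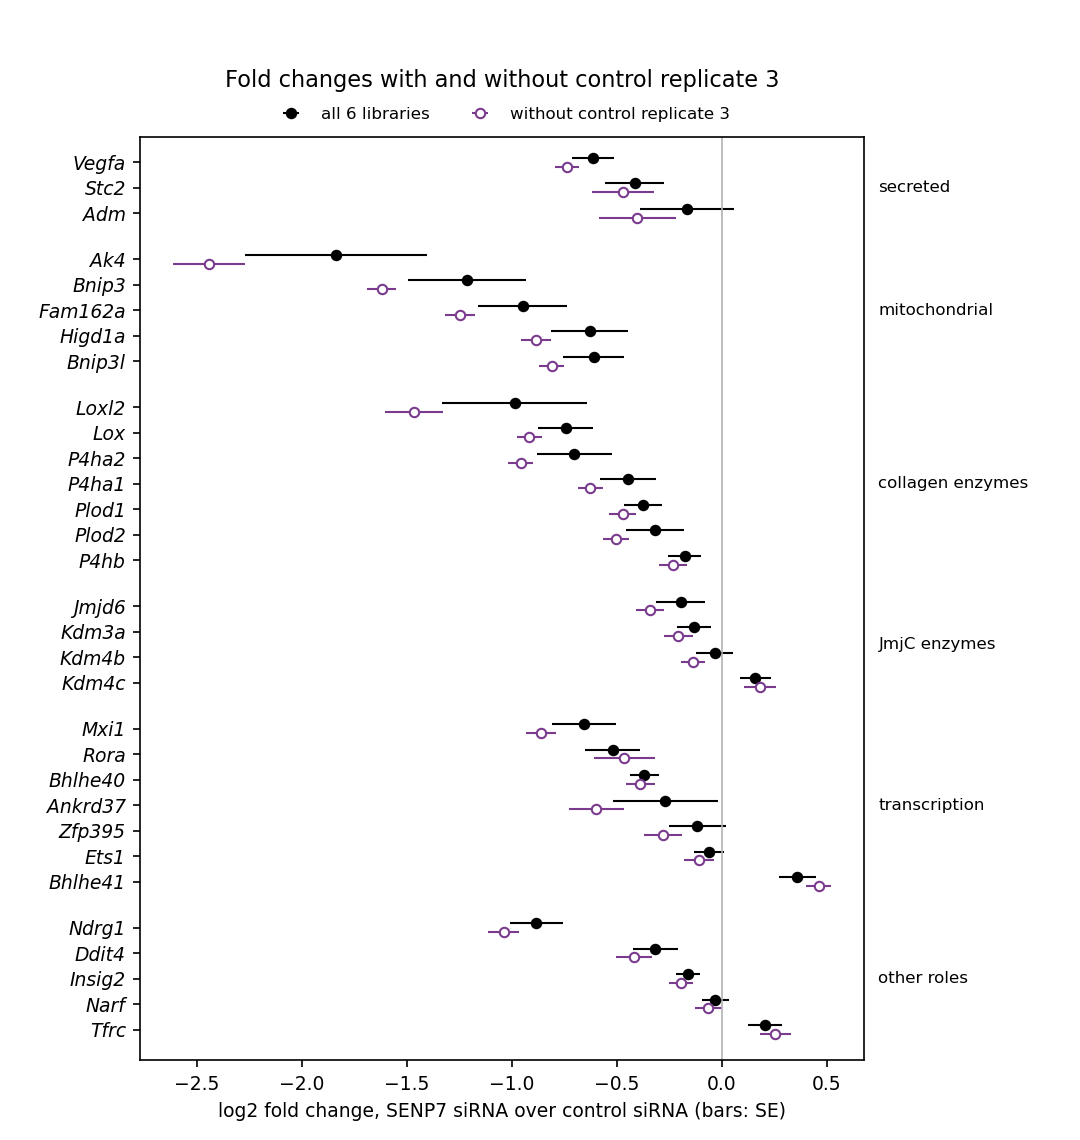
Log2 fold changes of SENP7 siRNA over control siRNA for the 31 genes (horizontal axis, bars are the standard error), with all 6 libraries (filled) and without control replicate 3 (open). Leaving out that library moved Ak4 to -2.44 and Loxl2 to -1.47 and hardly moved Bhlhe40, at -0.37 and -0.39.

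The rest of the pathway was read from lists of genes that are not members. Of 22 table entries for 21 glycolytic HIF targets, 13 fell, 0 rose and 9 did not pass, and 19 fell without control replicate 3. Their median was -0.64 on the log2 scale. Of 29 other HIF-inducible genes outside glycolysis, 15 fell, 1 rose and 13 did not pass, with a median of -0.49. The glycogen branching enzyme gene Gbe1 had 124.2, 105.9 and 113.7 normalized counts with SENP7 siRNA, against 702.5, 726.5 and 541.8 with control siRNA (-2.50 ± 0.13, limma adjusted p = 1.85e-05). Tmem45a had 408.1, 429 and 463.2 normalized counts with SENP7 siRNA, against 1337, 1255 and 913.4 with control siRNA (-1.41 ± 0.13). In both, control replicate 3 lay on the side of the other controls. Car9 differed, with 355 normalized counts in control replicate 3, against 1426 and 1622 in control replicates 1 and 2. Its SENP7 libraries had 93.2, 88.8 and 139.3 (-3.15 ± 0.49, limma adjusted p = 0.00276). Over the 29 genes, the median log2 difference of control replicate 3 from the other controls was -0.41. In 17 of them it lay nearer to the SENP7 mean. The rising gene was Igfbp3, a carrier of insulin-like growth factors (1.21 ± 0.17). These lists were also set up with earlier results known.

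**Figure D5:**
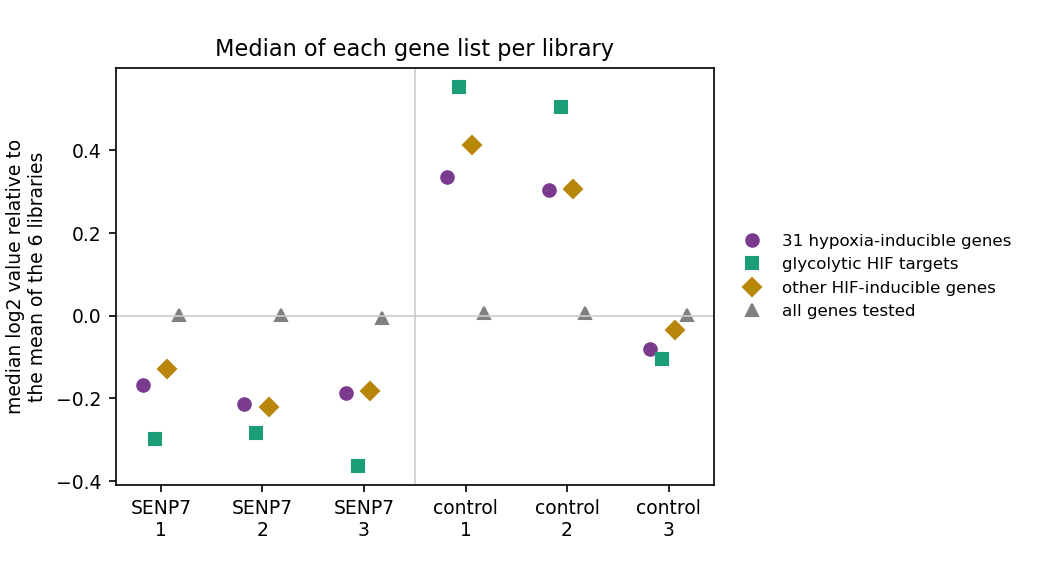
Median over each gene list of the log2 value relative to the gene's mean over the 6 libraries (vertical axis), for SENP7 siRNA replicates 1 to 3 at the left and control siRNA replicates 1 to 3 at the right. The 31 hypoxia-inducible genes lie between -0.21 and -0.17 in the SENP7 libraries, at 0.34 and 0.30 in control replicates 1 and 2 and at -0.08 in control replicate 3, while the median of all genes tested stays between -0.0046 and 0.0067.

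Among the HIF subunits and the oxygen-sensing hydroxylases, 1 of 9 tested genes was called higher, 5 fell and 3 did not pass. Hif1a, the main alpha subunit, had 3251, 3213 and 3161 normalized counts with SENP7 siRNA, against 3616, 3641 and 3268 with control siRNA (-0.13 ± 0.06, limma adjusted p = 0.174). Arnt (0.12 ± 0.06) and Vhl (0.01 ± 0.10) did not pass. The hydroxylase gene Egln3, itself a HIF target, had 1742, 1651 and 1369 normalized counts with SENP7 siRNA, against 7738, 8776 and 4689 with control siRNA. All SENP7 libraries lay far below all controls (-2.11 ± 0.20, adjusted p = 0.000264). Egln1 (-0.61 ± 0.16, adjusted p = 0.0288), Egln2 (-0.26 ± 0.07, adjusted p = 0.0297), Arnt2 (-0.54 ± 0.13, adjusted p = 0.0173) and Hif1an (-0.27 ± 0.07, adjusted p = 0.0196) fell by less. Epas1, another alpha subunit, was the gene called higher (1.48 ± 0.41, limma adjusted p = 0.0337). Its level was only 12.3 to 17.7 normalized counts in the SENP7 libraries, against 2.23 to 7.78 in the controls. It reached the filter's 10 normalized counts in the SENP7 libraries alone. Its place among the tested genes thus depended on the group in which it was higher, and nothing rests on its call. Hif3a had at most 2.02 normalized counts in any library and was not tested.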

How the data were processed

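Per the labels' protocols, libraries were made with a stranded kit. The submitters' processing notes name the build GRCm38.p6 and, in no stated role, STAR 2.6.1d, Trim Galore 0.6.4, DESeq2, featureCounts 1.6.4 and bcl2fastq. How strand was set in counting, which annotation was used and which DESeq2 version ran is not given in the sources used here. For each library the authors deposited a normalized signal per gene, which by its values is the count of reads over a single factor for that library. Per the file headers the authors also deposited a log2 fold change with its standard error, a Wald score and the p-value with its adjusted value.

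Reads were recovered by dividing each library's values by its smallest step, and 100% of values above 0 came out whole to within 0.1 read. In control replicate 1 this step is so close to 1 read that an automatic test of the recovery does not decide it, and recovered reads were used only for TPM, depth and the count tools. limma 3.58.1 (R 4.3.3) was fitted with a mean-variance trend and robust empirical Bayes on log2(normalized count + 1), which understates the change of low genes, for the 14668 genes that reached 10 normalized counts in 3 or more libraries, with group as the sole term. Tests were two-sided, with Benjamini-Hochberg adjustment over all genes tested and a threshold of 0.05. limma's p-values weigh the group difference against the spread within the groups of these 6 libraries, drawn toward the trend over all genes tested. Same-group pairs differed by a chi-square of 7.43 to 37.3 per gene, except SENP7 replicates 1 and 2 at 1.71, where sampling noise gives about 1. The value does not show whether those 2 libraries come from independent cultures. If they do not, the spread within the SENP7 group is understated. All 6 were kept, as the submitters call them biological replicates.

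The members, the lists, the choice of named genes (all members, Senp7, the HIF subunits and hydroxylases, and, by adjusted p, up to 4 leading genes of each list) and the alternatives were chosen with earlier results of these data known. The alternatives were DESeq2 1.42.0 and edgeR 4.0.16 with TMM on the recovered reads, the replicate number as a block, quantile normalization, other filters, a pseudocount of 5, and each library left out. The procedure was tested on simulated data. Some genes of the marker and clock lists are not reported here. Without the strand setting, reads of a gene and of an antisense partner could not be told apart, and exon overlaps were read from the table's coordinates.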

Additional observations from a re-analysis of the deposited data

How the results depend on the processing

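With all 6 libraries 14 members were lower and 1 higher, and these counts moved most when libraries were left out. Leaving out 1 library at a time gave between 4 and 24 lower members and between 0 and 2 higher members, with the highest counts without control replicate 3. Over all genes tested the same fits gave between 754 and 2413 lower calls and between 805 and 2289 higher calls, against 1570 and 1492 with all libraries. Without a filter on low genes 8 members were lower. The cause was not tested. The members' median log2 fold change stayed negative in all alternatives. Single members changed sign only in fits that left out a library: Adm ran from -0.402 to 0.0365 and was positive without control replicate 2. Kdm4b ran from -0.137 to 0.025, with 0.0157 without control replicate 2 and 0.025 without control replicate 1. Without control replicate 2, Narf was at 0.0207 and Zfp395 at 0.0204, and their lowest values were -0.0623 and -0.278. With DESeq2 and with edgeR 1 member each passed in addition and none was lost, and quantile normalization, a mean of at least 50 and a pseudocount of 5 changed no member's call.

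Whether the replicate numbers pair the libraries was not settled. Deviations from the group means of same-numbered libraries correlated at 0.13, 0.06 and 0.25 across genes, which are not independent. Control replicate 3 correlated at -0.15 and -0.16 with SENP7 replicates 1 and 2. Deviations within a group cancel out in each gene, so its 0.25 with SENP7 replicate 3 requires a negative value elsewhere. These negative values are therefore not separate evidence of pairing. SENP7 replicate 2, however, correlated better with control replicate 1 (0.14) than with control replicate 2. With the replicate number as a block Stc2 (adjusted p = 0.00834), Ddit4 (0.016) and Loxl2 (0.0478) passed and Bnip3 did not (0.0539), so that 16 members were lower and 1 higher, and 2123 of all genes were lower and 2052 higher. With the first base of the promoter motif fixed as A, 16 of the 22 genes with a window held a match, as did 21.8% of all genes with a window.

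The lowest level of a member in any library was 43.8 normalized counts, in Adm, so counting error is largest there. With 3 libraries per group and 1 of them displaced, a missed threshold does not show that a gene did not differ.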
